A study of Mus musculus with 96 samples.

Results

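The class I and II histone deacetylases were examined as the chromatin of their own genes, in nuclei of the mouse hippocampus. The list held 10 genes: the class I enzymes Hdac1, Hdac2, Hdac3 and Hdac8, the class IIa enzymes Hdac4, Hdac5, Hdac7 and Hdac9, and the class IIb enzymes Hdac6 and Hdac10. Their members were every peak, in the 6 tables of the series, that the authors had annotated to one of these gene symbols. That gave 10 peaks of 22815, and they belonged to 7 of the 10 genes.

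Histone deacetylases remove acetyl groups from the lysines of histones and of other proteins, which is in general associated with a more closed chromatin. Class I enzymes are mostly nuclear and work inside large corepressor complexes, with Hdac2 known in the hippocampus as a brake on memory formation and synaptic plasticity. Class IIa enzymes have little catalytic activity of their own, bind MEF2 transcription factors, and leave the nucleus when calcium-dependent kinases phosphorylate them and 14-3-3 proteins hold them in the cytoplasm. Of the class IIb enzymes, Hdac6 deacetylates tubulin in the cytoplasm and Hdac10 acts on polyamines. H3K4me3 is a histone mark of active promoters, H3K27me3 is the repressive mark set by Polycomb repressive complex 2, and Suz12 is a core subunit of that complex.

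The study compared WT mice with mice lacking Mutyh, lacking Ogg1, or lacking both (DKO), all of the C57BL/6N background, male and 6 months of age, with no treatment named in the labels. Mutyh and Ogg1 encode DNA glycosylases that start the repair of oxidised bases. The deletions are constitutive, so they are carried by every cell type, and hippocampi of several animals of one genotype were pooled before nuclei were sorted on NeuN into NeuN+ (neuronal) and NeuN- (non-neuronal) fractions. There was 1 table for each antibody and fraction, 6 in all, with 12 libraries in each, 3 per genotype. The study describes the replicates as independent, and a p-value here measures the spread between libraries made from pooled animals.

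The H3K4me3 tables held 96023 to 548706 reads in peaks per library in NeuN+ and 39320 to 120004 in NeuN-. The shallowest NeuN+ library was DKO replicate 1, with a median of 7 reads per peak, and the deepest was Ogg1-/- replicate 3, with 43. Of 10 neuron markers, 8 had an H3K4me3 peak in NeuN+ and 0 in NeuN-. Among these was Rbfox3, which encodes NeuN. H3K27me3 peaks were at 5 of the 10 neuron markers in NeuN-, Rbfox3 among them, and at 3 in NeuN+ (Gad1, Gad2 and Slc17a6). Only 2 of 15 markers of non-neuronal cells had an H3K4me3 peak in NeuN-, against 3 in NeuN+. By H3K4me3 these markers thus do not separate the NeuN- fraction. H3K27me3 peaks were at 7 of the 15 in NeuN+ and at 4 in NeuN-. Mutyh had a peak in 0 of the 6 tables. Ogg1 had an H3K4me3 peak in NeuN+, at 10.7 ± 4.79 in WT and 12.6 ± 5.94 in Ogg1-/- (SD, n = 3). In DKO it was at 0, 14.5 and 5.31 (6.59 ± 7.32), with the 0 in the shallow DKO replicate 1. The mark at a promoter does not report whether the gene product is made, so it does not check the genotype. In sorted bulk nuclei, a mark on fewer nuclei and a weaker mark on each nucleus cannot be told apart.

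The deacetylase genes had H3K4me3 peaks in both fractions, and 0 peaks of H3K27me3 or Suz12 were annotated to them. In NeuN+ nuclei 7 genes had an H3K4me3 peak: 2 of 4 in class I (Hdac1, Hdac2), 4 of 4 in class IIa (Hdac4, Hdac5, Hdac7, Hdac9) and 1 of 2 in class IIb (Hdac10). In NeuN- nuclei 3 did, Hdac2, Hdac7 and Hdac10, which is 1 gene of each class. For comparison, 49.2% of 21924 protein-coding genes had an H3K4me3 peak in NeuN+ (70.0% of the deacetylases), 13.5% had one in NeuN- (30.0%), 8.17% had an H3K27me3 peak in NeuN+ and 2.13% a Suz12 peak in NeuN+. In NeuN- the shares were 4.84% and 0.470%. A count of 0 in 10 genes is near these background shares. The peak values used here give no level of H3K27me3 or Suz12 at the deacetylase genes where there was no peak. The paper also counted reads around transcription starts and names HDAC4 as a target of Polycomb repressive complex 2. In DKO neurons it reports higher HDAC4 RNA and a negative correlation of RNA with H3K27me3. It also describes DNA hypomethylation of HDAC4 in DKO neurons, though its bisulfite sequencing used total DNA of unsorted hippocampus. The NeuN- tables hold fewer peaks in all, 3270 against 12628 for H3K4me3, and a gene without a peak was not quantified there, so the missing peak of Hdac1, Hdac4, Hdac5 and Hdac9 in NeuN- is not a measured level of 0. Of all genes with an H3K4me3 peak in NeuN+, 26.1% also had one in NeuN-. Of the deacetylase genes the share was 42.9%.

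Hdac3, Hdac6 and Hdac8 had no peak in any table under their own symbol. Hdac6 and Hdac8 lie on the X chromosome. The start of Hdac3 lay 283 bp from the centre of an H3K4me3 peak in NeuN+ that the authors had annotated to Rell2, whose start is also near. That peak had a mean of 20.1 normalised reads over the 12 libraries, with 33.4, 19.5 and 28.0 in WT and 4.51, 17.7 and 25 in DKO. The 4.51 was in DKO replicate 1, the shallowest NeuN+ library. The DKO and WT libraries overlapped, and the difference was -0.98 ± 0.53 (log2, SE, limma, unadjusted p = 0.0723). It is not counted as a member, since the rule goes by symbol and the 2 promoters cannot be told apart in this window.

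Each member peak is a 401 bp counting window classed by the authors as promoter, within 1 kb of a start. The place in the gene differed between genes (GRCm38 coordinates, GENCODE vM21 starts). The NeuN+ windows of Hdac1 (chr4:129542369-129542769), Hdac2 (chr10:36974650-36975050), Hdac5 (chr11:102229562-102229962) and Hdac10 (chr15:89128506-89128906) were centred 144, 306, 404 and -6 bp downstream of the outermost start of the gene. Those of Hdac4 (chr1:92179787-92180187), Hdac7 (chr15:97831137-97831537) and Hdac9 (chr12:34906841-34907241) were centred 15712, 13165 and 10054 bp inside the gene. Thus 3 of the 4 class IIa windows sat at an internal start and not at the outermost one. The nearest annotated starts to those 3 were 310 and 132 bp upstream of the centre for Hdac4 and Hdac7, and 62 bp downstream of it for Hdac9 (-62 on the gene strand). Within 1 kb of the Hdac5 window the microRNA gene Mir8101 also starts. The NeuN- windows were not the same intervals. That of Hdac2 (chr10:36974438-36974838) was centred 94 bp downstream of the outermost start, that of Hdac7 13216 bp and that of Hdac10 5 bp.

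The following stretches are, for each NeuN+ window, the longest run outside all annotated exons. Where the run passed 150 bases (Hdac4, Hdac9, Hdac5 and Hdac1), only its middle 150 are shown. The stretches were read from GRCm38 on the strand of the gene and are written 5′ to 3′. They are shown because they differ in the density of CpG dinucleotides, the pairs of C and G that are in capitals; promoters rich in CpG are the ones that usually carry H3K4me3.
Hdac4 (chr1:92179819-92179968, minus strand): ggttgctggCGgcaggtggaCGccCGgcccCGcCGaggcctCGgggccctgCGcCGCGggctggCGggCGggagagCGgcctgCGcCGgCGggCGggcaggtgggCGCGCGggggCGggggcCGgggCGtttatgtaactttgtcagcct
Hdac9 (chr12:34907054-34907203, minus strand): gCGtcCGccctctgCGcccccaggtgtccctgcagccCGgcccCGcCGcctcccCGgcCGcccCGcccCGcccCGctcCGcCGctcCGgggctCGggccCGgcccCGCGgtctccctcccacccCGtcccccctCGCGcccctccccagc
Hdac5 (chr11:102229591-102229740, minus strand): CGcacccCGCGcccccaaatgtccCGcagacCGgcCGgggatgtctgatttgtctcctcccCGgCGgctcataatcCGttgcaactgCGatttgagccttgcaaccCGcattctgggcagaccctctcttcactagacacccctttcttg
Hdac1 (chr4:129542400-129542549, minus strand): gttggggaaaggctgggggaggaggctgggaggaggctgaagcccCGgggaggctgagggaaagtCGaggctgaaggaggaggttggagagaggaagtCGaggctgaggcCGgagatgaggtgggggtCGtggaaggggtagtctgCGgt
Hdac2 (chr10:36974804-36974871, plus strand): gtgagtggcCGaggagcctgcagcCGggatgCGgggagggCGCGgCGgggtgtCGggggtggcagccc
Hdac7 (chr15:97831306-97831358, minus strand): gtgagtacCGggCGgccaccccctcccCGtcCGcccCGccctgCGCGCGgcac
No stretch is shown for Hdac10, whose window is covered by exons of Hdac10 itself and, in the RefSeq annotation, of Gm46530, a long non-coding RNA gene on the other strand.

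Among the 150-base stretches, Hdac4 held 22 CpG sites, Hdac9 21, Hdac5 11 and Hdac1 6. The shorter stretches of Hdac2 and Hdac7 held 7 and 8. Over the whole 401 bp windows the counts were 74 for Hdac4, 65 for Hdac9, 52 for Hdac7, 42 for Hdac5, 39 for Hdac2, 36 for Hdac1 and 25 for Hdac10, against a median of 35 over the promoter peaks of the table. The 3 windows at internal starts of class IIa genes thus held the most CpG sites. Their GC content was 81.0% for Hdac4, 82.0% for Hdac7 and 80.5% for Hdac9, where the median promoter peak had 67.1%. Hdac10 was lowest at 57.4%. Over the number expected from C and G content, the CpG count was 1.12 for Hdac4 and Hdac9 but 0.79 for Hdac7. The promoter median was 0.80. Hdac5 had 0.90, Hdac1 0.87, Hdac10 0.77 and Hdac2 0.77 on that measure. The GC box, the letters GGGCGG on either strand, was in 6 of the 7 windows and not in that of Hdac5. It was in 69.5% of the promoter peaks of the table. The ETS letters CCGGAAG, searched on both strands, were in the Hdac10 window only, and in 12.3% of promoter peaks. These matches describe the letters and not binding.

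Levels are normalised read counts as deposited, which can be compared within a table because all windows have the same width. In NeuN+ the order of the means over 12 libraries was Hdac2 (34.2), Hdac5 (28.1), Hdac4 (26.7), Hdac7 (23.5), Hdac9 (22.9), Hdac1 (21.7) and Hdac10 (16.9). Hdac2 was at the 92.0th percentile of all 12628 peaks by its mean, and Hdac10 at the 24.5th. Hdac2 was the highest of the 7 in 9 of 12 libraries, and Hdac10 the lowest in 7. Hdac2 exceeded Hdac10 in 12 of 12 libraries, by 1.24 ± 1.06 (mean log2 difference ± SD). Between neighbours in the order, an exact sign-flip permutation test over the 12 libraries (two-sided) told 0 of 6 pairs apart after Benjamini-Hochberg adjustment. The nearest were Hdac2 over Hdac5, by 0.35 ± 0.46 (exact p = 0.0308, adjusted p = 0.138, higher in 9 of 12 libraries), and Hdac1 over Hdac10, by 0.61 ± 1.06 (exact p = 0.0459, adjusted p = 0.138, higher in 9 of 12). For the other 4 pairs the mean difference ran from -0.04 to 0.27 with SDs of 0.48 to 0.72, so the order from Hdac5 to Hdac1 was not established. The pairs were taken from the order of the means in these same libraries, over all genotypes.

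**Figure D1:**
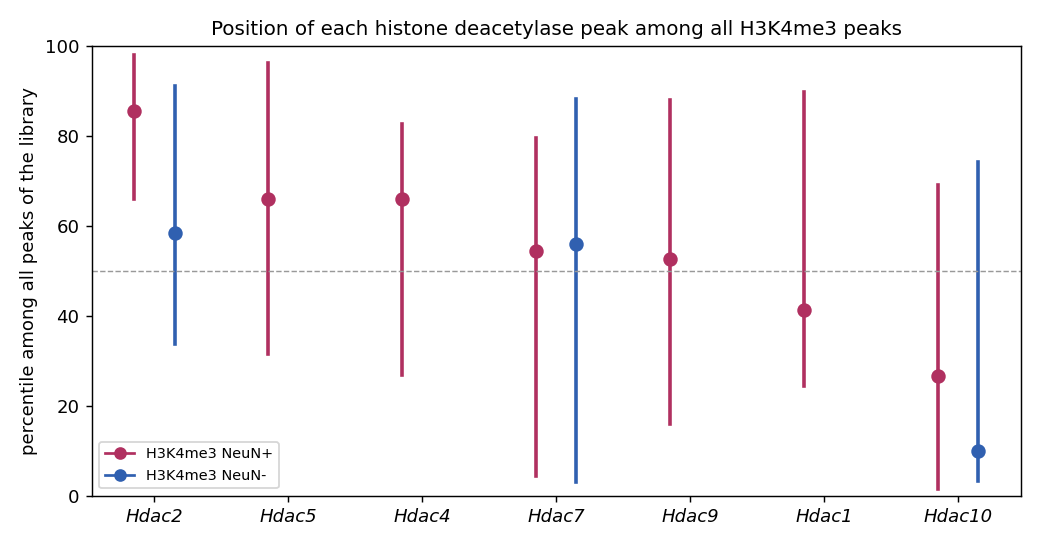
Percentile of each deacetylase peak among all H3K4me3 peaks of the same library (y axis, 0 to 100), with genes ordered by their NeuN+ mean; the point is the median and the bar the range over 12 libraries, red for NeuN+ and blue for NeuN-. Hdac2 has the highest NeuN+ median (85.6) and Hdac10 the lowest (26.7), and the bars of most genes span more than the gaps between their medians.

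The percentile plot ranks each window inside its own library, so that differences in total signal between libraries drop out. In NeuN+ the median percentile was 85.6 for Hdac2, 65.9 for both Hdac5 and Hdac4, 54.4 for Hdac7, 52.5 for Hdac9, 41.2 for Hdac1 and 26.7 for Hdac10. Hdac2 did not fall under the 65.9th percentile in any library, while Hdac7 ranged from the 4.48th to the 79.6th. In NeuN-, the medians were 58.3 for Hdac2, 56.0 for Hdac7 and 9.86 for Hdac10. The 2 fractions were normalised separately and counted over windows that differ in place. Their values are thus set side by side here and no test between them was made.

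In NeuN+ nuclei, loss of Mutyh, of Ogg1 or of both gave 0 calls at the 7 deacetylase windows, which is 0 of 21 peak and knockout pairs. A call here uses the cut-offs of the study, an unadjusted p under 0.05 together with a log2 difference from WT larger than 0.5 in size. The test was limma on log2(value + 1), where the study used edgeR, so its numbers of called regions cannot be compared with these. Over all peaks of the table the same rule called 0.911% for Mutyh-/-, 0.966% for Ogg1-/- and 1.46% for DKO, so that 0 calls among 7 peaks is near the background. At an unadjusted p under 0.05 alone the count was also 0, and edgeR and DESeq2 on the recovered reads gave 0 calls. The share of all NeuN+ peaks that these 2 tools called is not given here, so their 0 has no background beside it. The smallest adjusted p of limma was 1.00 in each of the 3 comparisons. The F test over the 3 knockouts had 0 of 7 windows at a p under 0.05, where 0.451% of all peaks passed. These limma fits left in the differences in total normalised reads between libraries, which ran from 210553 to 421957. Rescaled fits, given below for the non-additive contrast, passed a larger share of all peaks. The 95% intervals of the 21 differences ran from -2.56 at their lowest to 1.74 at their highest on the log2 scale, and a true difference of any size inside its interval is compatible with these libraries. The 3 comparisons share the WT libraries.

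**Figure D2:**
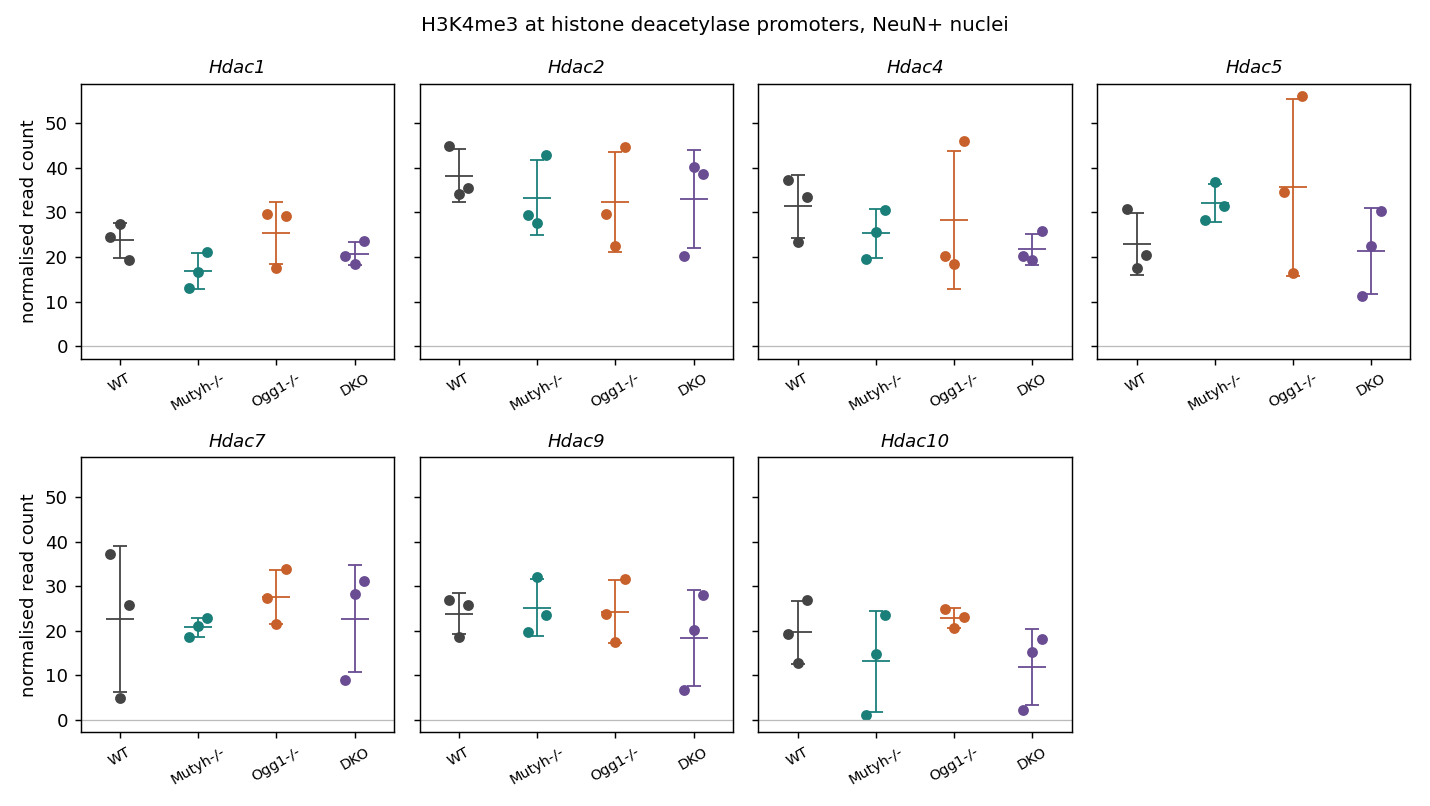
H3K4me3 at the 7 deacetylase windows in NeuN+ nuclei, as normalised read count (y axis) per genotype; dots are the 3 libraries, the dash is the mean and the bar the SD. The knockout libraries overlap the WT libraries at each of the 7 genes, and Hdac10 has 2 libraries near 0 (1.09 and 2.26).

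The plot of NeuN+ values by genotype shows each library. Among the class I genes, Hdac2 had 45.0, 34.1 and 35.5 normalised reads in WT, 29.4, 27.6 and 42.9 in Mutyh-/-, 29.8, 22.6 and 44.6 in Ogg1-/-, and 20.3, 40.2 and 38.7 in DKO. At least 1 library of each knockout lay within or above the WT range. The differences from WT were -0.21 ± 0.39, -0.28 ± 0.39 and -0.25 ± 0.39 (log2 fold change ± SE), with p of 0.593, 0.478 and 0.518 by limma. Hdac2 thus had the narrowest intervals of the family, for DKO from -1.05 to 0.54. Hdac1, the close paralogue of Hdac2 and its partner in the same complexes, had 24.4, 27.3 and 19.4 in WT, 13.1, 16.5 and 21 in Mutyh-/-, 29.8, 17.4 and 29.2 in Ogg1-/-, and 20.3, 18.5 and 23.5 in DKO. Its Mutyh-/- libraries included the 2 lowest of the 12, and the difference was -0.48 ± 0.44 (limma, unadjusted p = 0.281), with an interval of -1.36 to 0.41.

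Of the class IIa genes, Hdac4, whose loss in the brain is known to impair memory, had 37.3, 23.4 and 33.4 in WT, 19.6, 25.7 and 30.7 in Mutyh-/-, 20.2, 18.5 and 46.1 in Ogg1-/-, and 20.3, 19.3 and 25.8 in DKO. The highest of its 12 values was in Ogg1-/- replicate 3, the deepest library, and 2 of the 3 DKO values lay under the lowest of WT. The DKO difference was -0.49 ± 0.42 (limma, unadjusted p = 0.25, interval -1.34 to 0.36). Hdac7 had 37.3, 4.88 and 25.8 in WT, 18.5, 21.1 and 22.8 in Mutyh-/-, 27.4, 21.5 and 33.8 in Ogg1-/-, and 9.02, 28.1 and 31.1 in DKO. Its WT libraries held both its highest and its lowest value, so the knockouts lay inside the WT range throughout. Hdac9 had 27, 18.5 and 25.8 in WT, 19.6, 32.2 and 23.7 in Mutyh-/-, 23.8, 17.4 and 31.5 in Ogg1-/-, and 6.77, 20.1 and 28.0 in DKO. Its lowest value was in the shallow DKO replicate 1, where it rests on 3 reads, and its DKO difference of -0.54 ± 0.48 (limma, unadjusted p = 0.263) was 0.02 without that library.

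Hdac5, a class IIa enzyme whose nuclear exit follows neuronal activity, had the widest contrast between single and double knockouts. It had 30.9, 17.6 and 20.5 in WT, 28.3, 36.8 and 31.5 in Mutyh-/-, 34.5, 16.4 and 56.1 in Ogg1-/-, and 11.3, 22.5 and 30.3 in DKO. The means were 23.0 ± 7.0, 32.2 ± 4.25, 35.7 ± 19.9 and 21.4 ± 9.57 (SD, n = 3), so the means of both single knockouts lay above WT and that of DKO near it, with overlap of libraries in each case. Against WT, Mutyh-/- gave 0.50 ± 0.45 (limma, unadjusted p = 0.272), Ogg1-/- 0.49 ± 0.45 (unadjusted p = 0.281) and DKO -0.16 ± 0.45 (unadjusted p = 0.719).

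Whether the double knockout departs from the sum of the single ones was asked by setting the DKO difference against the 2 single-knockout differences added together. For Hdac5 this was -1.16 ± 0.63 (interval -2.45 to 0.13, limma, unadjusted p = 0.0773, adjusted p = 1.00). On the deposited scale 0 of 7 windows passed an unadjusted p under 0.05, where 0.839% of all peaks did. With the libraries rescaled to one another the same contrast had nearly the same size, and it passed the unadjusted threshold: -1.15 with TMM factors in limma (unadjusted p = 0.0104), -1.16 with total reads (unadjusted p = 0.00999), -1.13 after loess scaling (unadjusted p = 0.0113), -1.13 in edgeR (unadjusted p = 0.00861) and -1.13 in DESeq2 (unadjusted p = 0.0171). The share of all peaks that passed this threshold was also larger there, at 4.19%, 4.17%, 4.47%, 3.90% and 2.90% in the same order, and the adjusted p of Hdac5 stayed at 0.929 or above. On the deposited scale the contrast was -0.76 without Ogg1-/- replicate 3, -0.78 without DKO replicate 1 and -1.61 without Ogg1-/- replicate 2. In DKO replicate 1, the shallowest NeuN+ library, Hdac5 rests on 5 reads. The rescaled fits were not repeated without single libraries. As CPM, the count scaled to the total reads in peaks of its library, Hdac5 had 90.0, 76.2 and 65.0 in WT, 119, 135 and 95.1 in Mutyh-/-, 110, 78.0 and 133 in Ogg1-/-, and 52.1, 66.5 and 93.6 in DKO. On that scale the Mutyh-/- libraries lay above the WT libraries.

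That second scale, added after the deposited values were seen, removes the difference in total scaled signal between libraries. On the deposited values, 0 of the 21 pairs had libraries that did not overlap WT, where the shares over all peaks were 5.77% for Mutyh-/-, 3.68% for Ogg1-/- and 5.02% for DKO. In CPM, 4 of the 21 pairs did not overlap. Hdac5 was above WT in Mutyh-/-, Hdac4 below WT in Mutyh-/- and in DKO, and Hdac2 below WT in Ogg1-/-. The shares over all peaks on this scale were 9.95%, 10.1% and 9.78%. Hdac4 had a CPM of 109, 102 and 106 in WT, 82.7, 94.8 and 92.5 in Mutyh-/-, and 93.7, 57.0 and 79.6 in DKO. Hdac2 had a CPM of 131, 148 and 113 in WT and 94.8, 107 and 106 in Ogg1-/-. Tested by limma on total reads, 0 of the 4 passed: p was 0.0596 for Hdac5, 0.424 and 0.102 for Hdac4, and 0.154 for Hdac2.

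Hdac10, the class IIb gene and the lowest of the 7, was also the most variable. It had 19.3, 12.7 and 26.9 in WT, 1.09, 14.7 and 23.7 in Mutyh-/-, 25, 20.5 and 23.1 in Ogg1-/-, and 2.26, 15.3 and 18.2 in DKO. The 2 values near 0 are 1 read each, in Mutyh-/- replicate 1 and DKO replicate 1, and the other libraries of those genotypes reached into the WT range. The differences were -1.09 ± 0.72 for Mutyh-/- (limma, unadjusted p = 0.142), 0.27 ± 0.72 for Ogg1-/- (unadjusted p = 0.716) and -0.98 ± 0.72 for DKO (unadjusted p = 0.186). Without Mutyh-/- replicate 3 the Mutyh-/- value became -1.79 with an unadjusted p of 0.0315 in limma (adjusted p = 1.00). Without Mutyh-/- replicate 1 it was -0.01, and the DKO value without DKO replicate 1 was -0.16. The residual SD of Hdac10 was 1.21 on the log2 scale, against 0.30 for Hdac1 and 0.41 for Hdac2.

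Taken over the 7 windows, the median difference was -0.21 for Mutyh-/-, 0.07 for Ogg1-/- and -0.25 for DKO, beside medians over all peaks of -0.07, 0.08 and -0.02. In DKO 6 of 7 windows had a lower fitted mean than WT, in Mutyh-/- 4 and in Ogg1-/- 2 (Hdac1 and Hdac9 in Ogg1-/- changed sign under other scalings). None of these was a call. DKO replicate 1, which was the lowest of the 12 libraries at 3 of the 7 windows, held 40 reads over all 7, and the other libraries held 119 to 344. The 7 windows took 0.0417%, 0.0485% and 0.0604% of the normalised reads in DKO and 0.0645%, 0.0601% and 0.0595% in WT, which overlapped. The part of the depth of that library in the DKO values was not tested beyond leaving it out. This moved the DKO differences of Hdac2, Hdac5 and Hdac9 to 0.05, 0.22 and 0.02. Those of Hdac4 and Hdac1 stayed lower, at -0.45 and -0.16, beside -0.49 and -0.18 with all libraries. Hdac10 went from -0.98 to -0.16 and Hdac7 from 0.21 to 0.75.

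**Figure D3:**
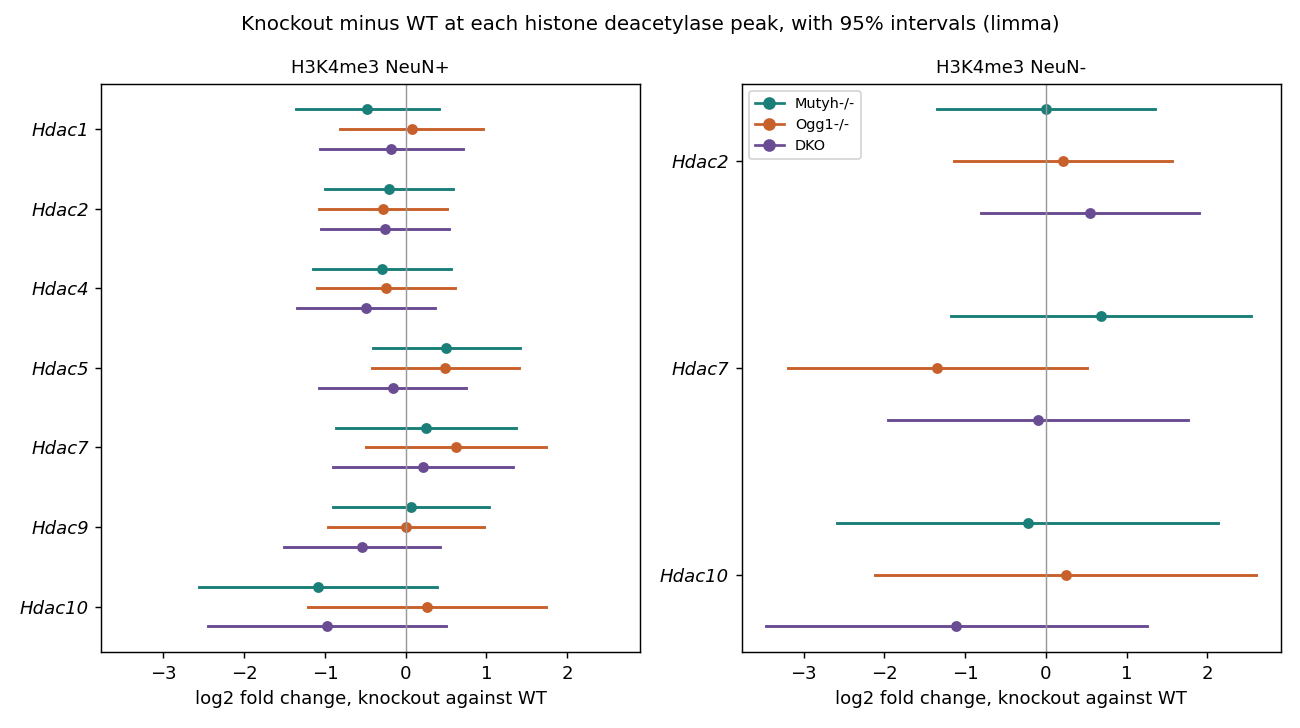
Log2 fold change of each knockout against WT (x axis) at each deacetylase peak, NeuN+ on the left and NeuN- on the right; points are limma estimates on log2(value + 1) and lines their 95% intervals, coloured by knockout. Every interval includes 0, and those of NeuN- are wider, reaching from -3.47 to 2.60.

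The interval plot sets the 2 fractions side by side. In NeuN- nuclei, 0 of 9 peak and knockout pairs were called, where the rule called 2.94% of all peaks for Mutyh-/-, 3.36% for Ogg1-/- and 2.29% for DKO. Again 0 passed an unadjusted p under 0.05 in limma, and edgeR gave 0 calls and DESeq2 gave 1. The DESeq2 call was Hdac7 in Ogg1-/-, a comparison in which edgeR called 3.39% of all peaks and DESeq2 4.50%. The F test over genotypes had 0 of 3 windows under 0.05 (1.87% of all peaks), and so had the non-additive contrast (3.03%). The smallest adjusted p of limma was 1.00, 0.999 and 0.999. In 0 of 9 pairs did the libraries lie apart from WT, against 9.24%, 8.29% and 5.02% of all peaks for Mutyh-/-, Ogg1-/- and DKO. All peaks of this table had median differences of 0.22, 0.25 and 0.05, so the differences of the members are to be read relative to those shifts.

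**Figure D4:**
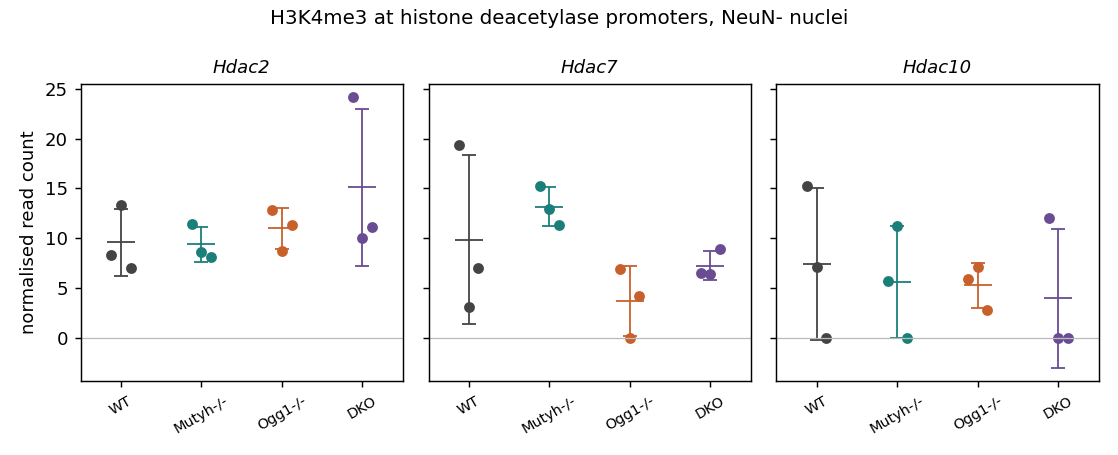
H3K4me3 at the 3 deacetylase windows with a peak in NeuN- nuclei, as normalised read count (y axis) per genotype; dots are the 3 libraries, the dash is the mean and the bar the SD, which is symmetric and can pass under 0. Hdac10 is at 0 in 4 of 12 libraries, and Hdac7 is lower on average in Ogg1-/- than in the other genotypes.

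As the plot of NeuN- values shows, the 3 windows were sparse. Hdac2 had 8.30, 13.4 and 7.09 normalised reads in WT, 11.4, 8.64 and 8.13 in Mutyh-/-, 12.9, 8.78 and 11.4 in Ogg1-/-, and 24.1, 10.0 and 11.2 in DKO. One DKO library was the highest and the others lay in the WT range, and the DKO difference was 0.55 ± 0.68 (limma, unadjusted p = 0.422, interval -0.80 to 1.90), which was 0.17 without DKO replicate 1. Hdac2 had 5 to 26 reads per library. Hdac10 had 15.2, 7.09 and 0 in WT, 5.71, 11.2 and 0 in Mutyh-/-, 5.94, 7.18 and 2.84 in Ogg1-/-, and 12.1, 0 and 0 in DKO. At a window with 0 reads in 4 of 12 libraries, 1 of them WT, the intervals were wide, for DKO from -3.47 to 1.25, and its DKO value of -1.11 was -2.35 without DKO replicate 1 (unadjusted p = 0.0743 in limma).

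Hdac7, which is best known from endothelial cells and thymocytes, had 19.4, 3.15 and 7.09 in WT, 15.2, 13.0 and 11.4 in Mutyh-/-, 6.93, 0 and 4.26 in Ogg1-/-, and 6.50, 6.43 and 8.94 in DKO. Each Ogg1-/- library lay under each Mutyh-/- library, but the WT libraries spanned most of both. The Ogg1-/- difference was -1.35 ± 0.93 on the deposited scale (limma, unadjusted p = 0.152, interval -3.20 to 0.51). It became a call with TMM factors in limma (-1.66, unadjusted p = 0.0499), after loess scaling (-1.61, unadjusted p = 0.0449) and in DESeq2 (-1.76, unadjusted p = 0.0313), with adjusted p of 0.939, 0.900 and 0.997. In those 3 fits 5.11%, 5.35% and 4.50% of all NeuN- peaks were called for Ogg1-/-. It was not a call with total reads in limma (-1.76, unadjusted p = 0.0692) or in edgeR (-1.68, unadjusted p = 0.0588), which called 2.91% and 3.39% of all peaks. On the deposited scale it was -0.45 without Ogg1-/- replicate 2, in which Hdac7 was at 0, and -0.74 without WT replicate 1.

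The genes that work with or beside these enzymes were taken from 4 lists. Of 38 genes of the corepressor complexes that hold class I enzymes (Sin3, NuRD, CoREST, NCoR), 35 had an H3K4me3 peak in NeuN+ and 13 in NeuN-. Of 21 partners of class IIa enzymes (MEF2 factors, CaM and protein D kinases, 14-3-3 proteins) it was 20 and 7. Of 8 other deacetylases (Hdac11 and the sirtuins) it was 5 and 0, and of 10 acetyltransferases 10 and 5. The partner genes were thus marked in NeuN+ at 70 of 77 genes. Of all protein-coding genes 49.2% had an H3K4me3 peak in NeuN+ and 13.5% in NeuN-. H3K27me3 was found at Prkd3 and Ywhaq in NeuN+ and at Camk2b in NeuN-, and Suz12 at 0 of the 77 genes. The shares of protein-coding genes were 8.17% and 4.84% for H3K27me3 in NeuN+ and NeuN-, and 2.13% and 0.470% for Suz12. The Suz12 count of 0 is near its shares.

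In H3K4me3 NeuN+, 1 of 79 list peaks was called for Mutyh-/- and 0 for Ogg1-/- and DKO, where 0.911%, 0.966% and 1.46% of all peaks were. In NeuN- 0 of 26 were called in each, where the shares over all peaks were 2.94%, 3.36% and 2.29%. These counts are near the background. The medians of the 79 were -0.06, 0.00 and 0.01. The one call was at Kat8, the acetyltransferase of histone H4 lysines, in Mutyh-/- (-1.33 ± 0.57, unadjusted p = 0.0249, adjusted p = 1.00 in limma). The other acetyltransferase peaks with the smallest p were Kat6a in NeuN-, for Ogg1-/- (1.25 ± 0.82, unadjusted p = 0.134), and Crebbp, the CREB-binding protein, in NeuN+ for Mutyh-/- (-0.61 ± 0.44, unadjusted p = 0.176). In H3K27me3 NeuN+, where 3.78%, 3.82% and 3.36% of all peaks were called for Mutyh-/-, Ogg1-/- and DKO, 1 of 6 pairs of the class IIa partners was: Prkd3, a protein kinase D, had -1.54 ± 0.77 in Mutyh-/- (unadjusted p = 0.0469, adjusted p = 0.998).

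Of the remaining list genes, the smallest p were those of peaks that were not called. For the corepressors these were Arid4b and Arid4a, both of the Sin3 complex, in NeuN- with 2.01 ± 1.07 for Ogg1-/- (limma, unadjusted p = 0.0662) and 1.44 ± 0.84 for Mutyh-/- (unadjusted p = 0.092), and Gatad2b of NuRD in NeuN+ with -0.84 ± 0.50 for Mutyh-/- (unadjusted p = 0.103). For the class IIa partners they were Sfn, a 14-3-3 protein, with 1.28 ± 0.71 for DKO (unadjusted p = 0.0787) and Camk2a, the main postsynaptic calcium-dependent kinase, with -0.83 ± 0.53 for Mutyh-/- (unadjusted p = 0.127), both in NeuN+. For the sirtuins they were Sirt4, Sirt5 and Sirt6, with p of 0.201, 0.23 and 0.434.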

How the data were processed

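H3K4me3, H3K27me3 and Suz12 ChIP-seq libraries of sorted hippocampal nuclei were analysed from 6 tables of peaks by libraries. The submitters' notes name Bowtie2 2.3.5.1, SICER, DiffBind 3.10.1 and ChIPseeker 1.36 on GRCm38. Enriched regions were kept as consensus peaks where several replicates had them, and were annotated to the closest gene. The deposited values are a signal made by the authors, reads in each 401 bp window over a scale factor of the library. Whole reads were recovered as the value over the smallest positive value (100% of values whole within 0.01 reads), and input libraries were not used here.

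Values were tested as log2(value + 1) with limma 3.58.1 (R 4.3.3), all 12 libraries of a table in one fit with genotype as the only term and no filter on low values, and p-values were adjusted by Benjamini-Hochberg over the table. Such fold changes understate the change at low values. Depth limits the precision through the reads per window, and Suz12 and H3K27me3 tables had no member to test. Alternatives were other pseudocounts (0.5 and 4), scalings, filters and library sets, and edgeR 4.0.16 and DESeq2 1.42.0 on recovered reads. The scripts were tested on simulated data. All members and each list gene among the 3 smallest p of its list are named. The members, gene lists and tests were chosen with earlier results of these data known. The list rule takes its peaks by p, so those values are a selection.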

Additional observations from a re-analysis of the deposited data

How the results depend on the processing

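Fits under 23 alternatives gave 0 member tests with an adjusted p under 0.05 (smallest 0.683). In H3K4me3 NeuN+, calls at the 7 deacetylase windows stayed at 0 under each other tool, scaling, pseudocount and filter. They ranged from 0 to 1 when 1 library was left out. The calls were Hdac10 in Mutyh-/- without Mutyh-/- replicate 3 (-1.79, unadjusted p = 0.0315 in limma) and Hdac5 in Ogg1-/- without Ogg1-/- replicate 2 (0.95, unadjusted p = 0.0413, adjusted p = 0.914 in limma). The share of all peaks called is not given for these settings, nor for any other fit without a single library. Counts from such fits, here and below, thus have no background beside them. In NeuN- the count was 1 with TMM factors in limma, 1 after loess scaling and 1 in DESeq2, each time Hdac7 in Ogg1-/-. Non-additive DKO effects numbered 1 with TMM factors, 1 with total reads, 1 after loess scaling, 1 in edgeR and 1 in DESeq2, and 0 to 1 without single libraries (WT replicate 1, Ogg1-/- replicate 2 and DKO replicate 3 gave 1), all for Hdac5. Neighbouring levels told apart ranged from 0 to 2 (2 without Mutyh-/- replicate 2). Pairs not overlapping WT in NeuN+ went from 0 to 4 in CPM, a scale added after seeing the data. The causes were not tested. Genotype F tests stayed at 0 windows throughout. Of the 21 NeuN+ differences 19 kept their sign under each other tool and scaling (not Hdac1 and Hdac9 in Ogg1-/-), and 11 also without any single library. Of the 9 in NeuN- it was 6 and 4.

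With replicate numbers as a block (the replicate block), calls were 0 in NeuN+ and 0 in NeuN-, and non-additive effects 0. Same-numbered libraries were not taken as pairs, since their deviations from the genotype means correlated between -0.10 and 0.12 in the H3K4me3 tables.

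Since no member peak was called, fold changes of called peaks have no alternatives, and H3K27me3 and Suz12 held no member to refit. Without the lowest 25% of peaks, the Hdac10 windows dropped out, leaving 6 and 2 windows. Depth limits the rest: median reads per peak were 7 to 43 in NeuN+ and 4 to 16 in NeuN-, and intervals allow changes of more than 1 log2 unit at most windows.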
